A study of Mus musculus with 6 samples.

Results

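Resident cardiac macrophages are the long-lived tissue macrophages of the heart, and they were examined here as 859 of 30014 cells in 6 single-cell RNA libraries of mouse ventricle. The cells were selected on measured counts of unique molecular identifiers (UMIs, each standing for 1 captured transcript) and not by clustering. A member had at least 1000 UMIs, at least 200 detected genes and at most 20% mitochondrial UMIs. It had at least 3 UMIs of the complement genes C1qa, C1qb and C1qc together and at least 3 of Csf1r, Cd68, Fcgr1 and Lyz2 together. It had under 1% of its UMIs from the neutrophil genes S100a8 and S100a9, and at most 2 UMIs of Col1a2 and Cdh5 together. It also had at least 4 UMIs summed over 4 receptors, Lyve1, Folr2, Timd4 and Cd163. Cells that met every condition except the receptor sum are called the other gated macrophages, and there were 4371 of them.

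The libraries came from male mice of 8 to 12 weeks, either wild type (WT, strain C57BL/6JRj) or carrying the B6.Cg-Trpm4tm1.2-PG allele (KO), which targets the calcium-activated cation channel gene Trpm4. Hearts were taken 24 h after a sham operation, 24 h after the LAD (left anterior descending artery) was ligated, or 72 h after it. There was no sham group at 72 h. Ventricles were digested with thermolysin and papain at 37 °C, cells that passed a 40 µm mesh were stained with Calcein-AM and DAPI and the live ones sorted, and the cells of 4 mice were pooled into 1 library per group. With 1 library per group no difference below has a replicate check, no test was made, and every interval (95%, exact) covers counting error only and not the spread between mice, operations or library preparations.

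Resident macrophages of the heart are seeded before birth and renew themselves locally, with little input from blood monocytes under normal conditions. They are known for taking up dying cells and mitochondrial debris, for scavenging haemoglobin and lipoproteins, and for supplying growth factors, and after infarction many of them are lost while monocyte-derived macrophages enter. Lyve1, a hyaluronan receptor, Timd4, a receptor for phosphatidylserine on dying cells, Folr2, the folate receptor beta, and Cd163, the receptor for haemoglobin bound to haptoglobin, are the surface genes most often used to tell the resident cells from newly arrived ones.

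The label was first checked against these receptors, whose values chose the cells and are therefore given as a description. Values in series below follow the order WT sham 24 h, KO sham 24 h, WT ligation 24 h, KO ligation 24 h, WT ligation 72 h and KO ligation 72 h. The libraries held 166, 146, 65, 144, 283 and 55 members. Levels are UMIs summed over the members of a library divided by all UMIs of those members, scaled as counts per 1e6 (CPM). Lyve1 was measured at 542, 550.4, 233, 242, 20.5 and 117 CPM. Timd4 was measured at 81.5, 71.4, 32.3, 10.0, 1.43 and 7.5 CPM, and Cd163 at 427, 412, 497, 421, 33.9 and 102 CPM. Folr2 was measured at 596, 541, 263, 287, 372 and 373 CPM. In both genotypes Lyve1 and Timd4 were highest at sham and lowest at 72 h, Cd163 was low at 72 h alone, and Folr2 remained above 260 CPM in all 6 libraries.

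The members at 72 h therefore went against the label. Folr2 was the only receptor detected in 23 of 166, 10 of 146, 9 of 65, 11 of 144, 219 of 283 and 27 of 55 members, which is 13.9%, 6.85%, 13.8%, 7.64%, 77.4% and 49.1%. A Lyve1 or Timd4 UMI was present in 66.9%, 74.7%, 55.4%, 48.6%, 7.77% and 30.9% of members. Members with UMIs of all 4 receptors numbered 48, 39, 5, 10, 2 and 1. In what follows the sham and 24 h members are called resident macrophages by the rule, the 72 h members are called Folr2-led members, and results are also given for the 365 members that carried a Lyve1 or Timd4 UMI (111, 109, 36, 70, 22 and 17 per library) and for the remaining 494.

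**Figure D1:**
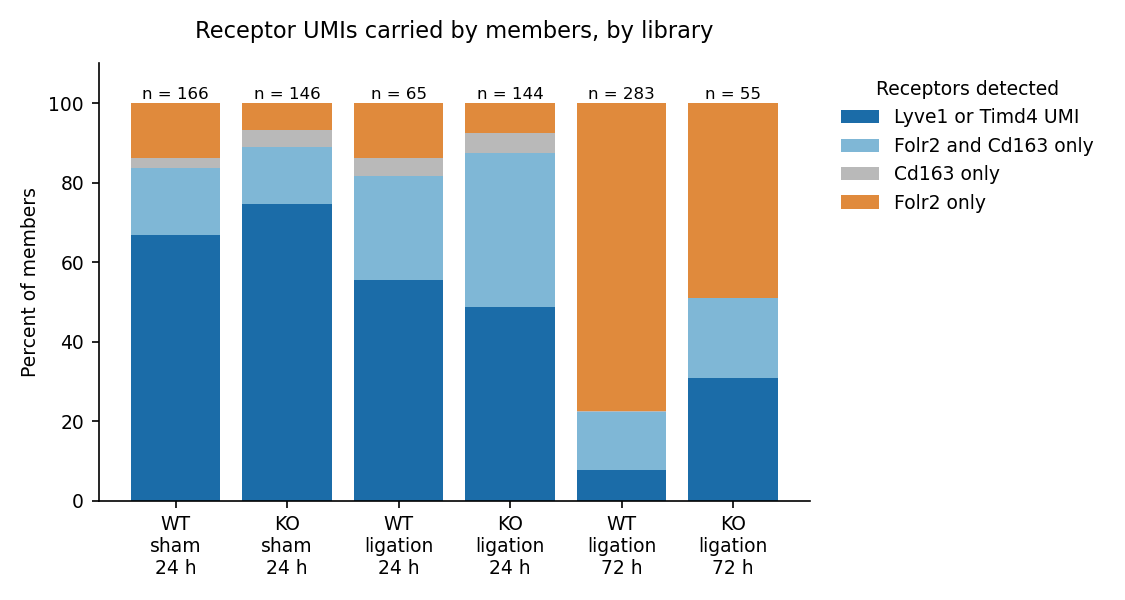
Share of members (y axis, percent) in each of the 6 libraries (x axis) by the receptor UMIs they carried, with the number of members above each bar. Members with a Lyve1 or Timd4 UMI make up 66.9% and 74.7% of the sham bars, and Folr2-only members make up 77.4% and 49.1% of the 72 h bars.

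Members with and without a Lyve1 or Timd4 UMI also differed in genes that the rule did not use. Ccr2, the chemokine receptor that brings monocytes into tissue, was at 166, 215, 277, 229.8, 200.2 and 186 CPM in members with a Lyve1 or Timd4 UMI and at 602, 555, 557, 464, 261 and 415 CPM in the remaining members. In the other gated macrophages it was at 639, 469, 582, 549.6, 500.3 and 541 CPM. Trem2, a lipid receptor of macrophages, was at 209, 257, 166, 268, 400.4 and 564 CPM in the first set and 264, 294, 189, 285, 1010.3 and 966 CPM in the second. Fabp5, a fatty acid carrier, was at 137, 497, 289, 429, 527 and 371 CPM and 911, 1162, 861, 788, 3898 and 2422 CPM. At 72 h all 3 genes were higher in the remaining members than in those with a Lyve1 or Timd4 UMI, in both genotypes. Summed lists were less uniform. A list of 15 monocyte-derived macrophage genes summed to 3009, 4467, 8300, 6024, 8112 and 6393 CPM in the first set. In the second it summed to 8716, 9686, 10355, 10421, 6723 and 6676 CPM, lower than the first in WT at 72 h alone. A list of 24 resident identity genes was higher in the first set except in WT at ligation 24 h (13347 against 16953 CPM). These 2 sets were made from the readout, so their contrast has no test.

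The receptor sum has a sharp edge. The cells just inside it, with a sum of 4, numbered 21, 14, 7, 15, 66 and 21, and the cells just outside, with a sum of 3, numbered 20, 16, 13, 26, 80 and 29. Median receptor sums of members were 12, 13, 11, 10, 7 and 5. Because the rule counts raw UMIs, membership also depends on depth. Members had a median of 9294, 11308, 18416, 16810, 19916 and 12784 UMIs, and the other gated macrophages had 11154, 9179, 13034, 12383, 13252 and 2597, so the KO library at 72 h was the one in which non-members were far shallower than members. Members of a library held between 666876 and 5600174 UMIs in total.

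The targeted gene gives a partial check of the genotype. In members, Trpm4 was counted 16, 7, 13, 8, 22 and 2 times, or 8.05 against 3.60 CPM at sham, 11.1 against 3.21 CPM at ligation 24 h and 3.93 against 3.00 CPM at ligation 72 h. Over all kept cells the levels were 8.78 against 6.03, 5.48 against 3.46 and 4.24 against 2.58 CPM in WT and KO. Relative to depth Trpm4 was thus lower in KO in each condition but not absent, the intervals of members overlapped, and counts per gene do not show which part of the gene the allele lacks. No member shared its cell barcode with a member of another library, and between 2 and 12 kept barcodes were shared by each of the 15 pairs of libraries.

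The promoters of the receptors are shown because the receptors parted at 72 h, Folr2 staying measurable while Timd4 was down to 8 UMIs in WT and 5 in KO and Cd163 was at 33.9 and 102 CPM. The sequences are the 250 bases before each RefSeq start in build GRCm38.p6, 5′ to 3′ on the strand of the gene. The bases after the start were found in an annotated transcript of the gene for both Folr2 starts, but not for Timd4 or Cd163. Capitals mark the letters TGCTGA or their reverse complement TCAGCA, the core of the recognition element of MAF factors, which are known for maintaining macrophage identity. Of 32851 promoters of this length, 16.1% hold such a match on either strand. Folr2 lies on the minus strand of chromosome 7 and has 2 starts, with 1 match before each. Timd4 lies on the plus strand of chromosome 11 and has 2 matches, and Cd163, on the plus strand of chromosome 6, has none. A match is a description of the letters in this window. There is no entry for Lyve1.
Folr2 promoter (first start), chr7:101857191-101857440: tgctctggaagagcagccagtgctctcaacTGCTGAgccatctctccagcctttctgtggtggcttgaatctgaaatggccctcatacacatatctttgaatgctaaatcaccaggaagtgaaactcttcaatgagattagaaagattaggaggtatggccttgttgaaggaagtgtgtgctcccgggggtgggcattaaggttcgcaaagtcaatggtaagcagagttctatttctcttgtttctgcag
Folr2 promoter (second start), chr7:101845332-101845581: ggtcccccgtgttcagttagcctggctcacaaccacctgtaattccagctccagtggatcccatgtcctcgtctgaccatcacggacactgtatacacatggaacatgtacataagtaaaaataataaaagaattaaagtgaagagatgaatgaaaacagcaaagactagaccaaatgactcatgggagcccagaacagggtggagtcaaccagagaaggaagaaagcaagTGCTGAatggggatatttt
Timd4 promoter, chr11:46810549-46810798: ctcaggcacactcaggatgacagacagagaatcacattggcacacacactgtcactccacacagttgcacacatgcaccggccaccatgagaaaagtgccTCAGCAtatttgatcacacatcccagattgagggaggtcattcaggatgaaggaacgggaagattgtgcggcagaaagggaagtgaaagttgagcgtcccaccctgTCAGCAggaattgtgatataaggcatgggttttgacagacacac
Cd163 promoter, chr6:124304401-124304650: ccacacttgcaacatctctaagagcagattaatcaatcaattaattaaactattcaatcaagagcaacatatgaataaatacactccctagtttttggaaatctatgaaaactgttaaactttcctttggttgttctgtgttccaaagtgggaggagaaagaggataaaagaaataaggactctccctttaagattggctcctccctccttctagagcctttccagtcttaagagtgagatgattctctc

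Maf itself was measured at 947, 1192, 861, 647, 374 and 523 CPM in members. At 72 h Maf lay at 507 and 653 CPM in members with a Lyve1 or Timd4 UMI and at 367 and 490.4 CPM in the remaining members. Members of the sham libraries had the higher Maf levels in both genotypes.

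Shares were then compared across the libraries. Members made up 3.12% (2.67 to 3.62), 2.51% (2.12 to 2.94), 2.03% (1.57 to 2.58), 2.14% (1.81 to 2.51), 6.42% (5.72 to 7.19) and 1.22% (0.918 to 1.58) of kept cells. The intervals of WT and KO overlapped at sham and at ligation 24 h and were far apart at 72 h, where WT was higher. Of those members, Folr2 was the only receptor detected in 219 in WT and 27 in KO, and the 2 libraries differed in depth. A looser rule was also read at equal depth: every cell was thinned to 1000 UMIs, and the sums for the complement genes, the myeloid genes and the receptors each had to reach 1. Under that rule, which is not the rule of the members and admits other cells, the 72 h shares were 3.56% in WT and 3.10% in KO.

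Members with a Lyve1 or Timd4 UMI behaved differently. They made up 2.08% (1.72 to 2.5), 1.87% (1.54 to 2.25), 1.12% (0.789 to 1.55), 1.04% (0.811 to 1.31), 0.499% (0.313 to 0.755) and 0.376% (0.219 to 0.602) of kept cells. The share was lower at ligation 24 h than at sham and lower again at 72 h, in WT and in KO, and the WT and KO intervals overlapped in each condition. This restriction was chosen after the receptor makeup had been seen. A share of kept cells also moves with the number of neutrophils and monocytes that entered. Gated neutrophils numbered 734, 600, 1082, 3378, 639 and 325 in libraries of 5328, 5827, 3201, 6734, 4406 and 4518 kept cells. With gated neutrophils left out of the denominator, all members made up 4.29% in KO at ligation 24 h. The KO sham share then stayed inside 2.12 to 2.94, so it was the lower of the 2. The share of members with a Lyve1 or Timd4 UMI is not given for that denominator. From these shares fewer resident macrophages and more cells of other kinds cannot be told apart.

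**Figure D2:**
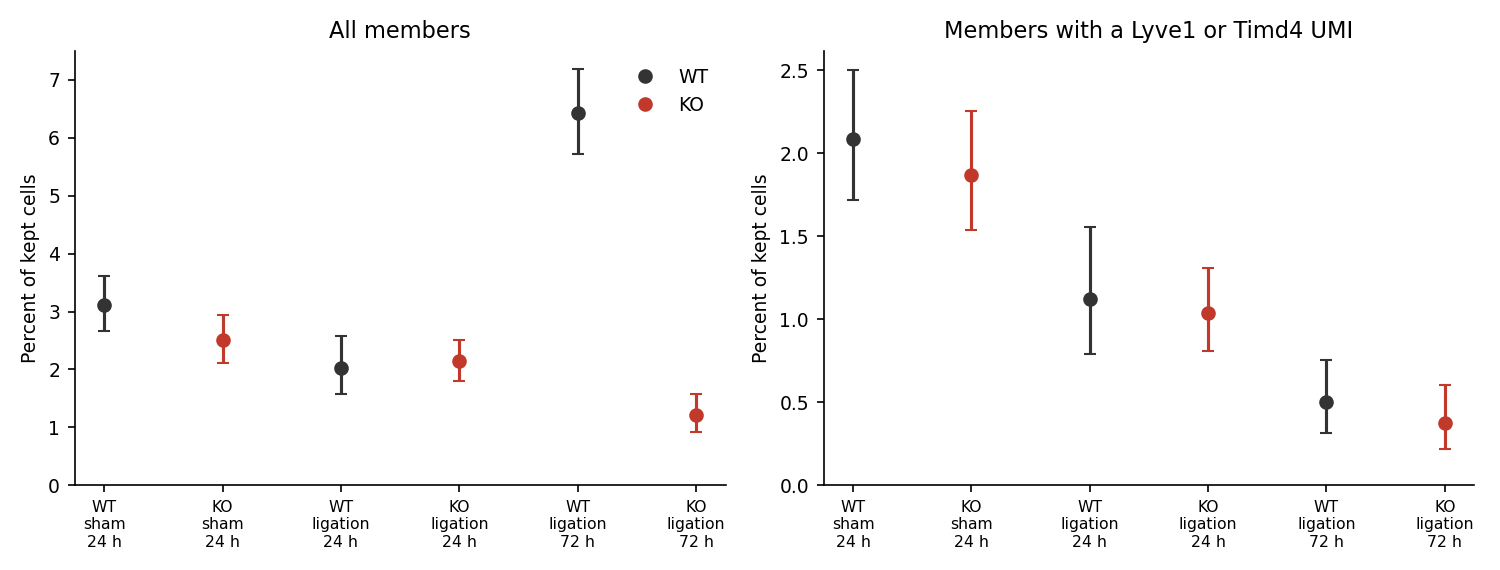
Members (left) and members with a Lyve1 or Timd4 UMI (right) as percent of kept cells (y axes) in each library (x axes), WT in black and KO in red, with exact 95% binomial intervals that cover counting error only. The left panel peaks at 6.42% in the WT 72 h library, whereas the right panel runs from 2.08% and 1.87% at sham to 0.499% and 0.376% at 72 h.

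Among gated macrophages, members made up 28.4% (24.8 to 32.2), 33.0% (28.7 to 37.6), 24.2% (19.2 to 29.7), 23.7% (20.4 to 27.3), 18.5% (16.6 to 20.6) and 3.05% (2.31 to 3.96). This denominator is not moved by neutrophils or endothelial cells, but it includes the macrophages that carried none of the 4 receptors, which were 50.8%, 47.1%, 54.3%, 58.3%, 56.1% and 80.7% of the gate. A receptor sum of raw UMIs depends on depth. At 72 h the other gated macrophages had a median of 13252 UMIs in WT and 2597 in KO. Under the looser rule at equal depth the 72 h shares of the gate were 10.7% in WT and 6.72% in KO.

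Timd4 was also counted per cell. A Timd4 UMI was present in 40.4%, 41.8%, 20%, 9.03%, 1.41% and 3.64% of members, and after thinning to 1000 UMIs in 9.64%, 8.22%, 4.62%, 1.39%, 0% and 1.82%. In endothelial cells, which should lack Timd4, it was present in 0.0934%, 0.0335%, 0%, 0%, 0% and 0% (median depths of 2664 to 4535 UMIs). Thinned values near that of 1 UMI per cell do not resolve the ligation libraries from each other.

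What distinguished members from the other gated macrophages was described gene by gene, without a test, since the receptor sum made the contrast. Among 6447 genes with at least 50 UMIs over both sets in every library, 18.0% were higher in members in all 6 libraries and 8.45% lower in all 6. Of the resident identity list, 17 of 20 genes measured that way were higher in all 6. Mrc1, the mannose receptor, differed by a log2 ratio of 0.86 to 2.17, and Cbr2, a carbonyl reductase, by 1.84 to 3.46. Gas6, the bridging ligand that lets Mertk bind dying cells, differed by 1.31 to 3.93 and Igf1, a growth factor, by 1.11 to 2.68. Fcna (ficolin A) differed by 1.33 to 3.51, Fcgrt (the neonatal Fc receptor) by 1.19 to 3.48 and Selenop, a selenium carrier, by 0.67 to 2.44. In each case the smallest gap was in a ligation library, and for Mrc1, Cbr2, Gas6, Igf1, Fcgrt and Selenop it was in the WT library at 72 h. Cx3cr1, the fractalkine receptor, was higher in only 2 of the 6 libraries.

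Of the growth factor list 4 of 8 measured genes were higher in members in all 6 libraries and 2 lower, and of the efferocytosis list 7 of 16 were higher and 2 lower. Timp2, a metalloproteinase inhibitor, was higher in members by 1.05 to 2.26. Of the MHC class II list 7 of 7 measured genes were lower in members in all 6 libraries, and of the monocyte-derived list 10 of 15 were, with none higher in all 6. H2-Ab1, an MHC class II chain, was lower in members by log2 ratios of -0.74 to -3.28, Ccr2 by -0.55 to -0.95, Ly6c2 by -1.69 to -2.54 and Il1b by -1.13 to -2.62. Spp1 (osteopontin) changed sides, lying lower in members at sham and ligation 24 h and higher by 0.82 and 0.72 at 72 h.

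Markers of other cell types were low in members but not at 0. The 7 neutrophil markers summed to 343, 210.2, 281, 555, 244 and 673 CPM, with Ngp at 0 in every library, against 78148 to 150402 CPM in gated neutrophils. The 7 endothelial markers summed to 132, 203, 271, 20.9, 98.9 and 103 CPM against 15776 to 36354 CPM in gated endothelial cells. The 6 fibroblast markers summed to 168, 159.8, 147, 144, 293 and 478 CPM against 18672 to 35439.8 CPM in gated fibroblasts. The 6 cardiomyocyte markers summed to 16.1, 25.2, 10.2, 161, 8.39 and 18.0 CPM, highest in the KO 24 h ligation library, where 1 cell held 41.5% of 118 Myl2 UMIs. The 5 erythroid and platelet markers, Ppbp included, summed to 93.1, 167, 678, 427, 84.5 and 303 CPM. At 72 h the hemoglobin genes Hba-a1 and Hbb-bs were higher in KO than in WT, whereas Ppbp was lower. Dendritic markers did not exceed 9.35 CPM and T and NK markers 10.2 CPM. Of 4 B cell markers only Ighm had at least 50 UMIs over the sham and 24 h ligation libraries. Its log2 ratio at ligation 24 h against sham was -2.82 in WT and -2.82 in KO. Of 5 mural markers only Acta2 reached that number in WT, with a ratio of 2.28. Lyve1 also marks lymphatic endothelium, and of the 4 lymphatic markers (Prox1, Mmrn1, Ccl21a, Flt4) at most 3 were detected, summing to 1.01, 1.54, 0.850, 0.803, 0.357 and 108 CPM. The 108 CPM in the KO 72 h library came mainly from Ccl21a, of which 1 cell held 95.4% of 65 UMIs, and the other gated macrophages of that library held the 4 markers at 93.2 CPM.

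The first comparison of the design asks how members 24 h after ligation differed from members 24 h after sham, within each genotype. A gene was tested for size if it had at least 50 UMIs over the pair of libraries, and "rose" or "fell" is used only for a ratio of at least 2-fold. In WT 6294 genes could be compared, of which 218 rose (3.46%) and 251 fell (3.99%), 7.45% in all. In KO 7116 genes could be compared, of which 141 rose (1.98%) and 293 fell (4.12%), 6.10% in all. The WT and KO pairs share no library. Of 6250 genes measured in both, 61 rose in both, which is 28.6% of those that rose in WT and 64.2% of those that rose in KO, and 76 fell in both, 31.0% and 31.9%. The median gene moved by -0.02 (log2) in WT and -0.12 in KO, and with ratios centred on the median gene 183 genes rose and 195 fell in KO.

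Members at 24 h after ligation carried more mRNA of neutrophil-attracting chemokines than members at sham. Cxcl3, a ligand of the neutrophil receptor Cxcr2, was at 166, 238, 1406, 1092, 40.4 and 48.0 CPM, with log2 ratios at ligation 24 h against sham of 3.08 (2.91 to 3.26) in WT and 2.20 (2.06 to 2.34) in KO. Cxcl2, another such ligand, was at 450.4 and 607 CPM at sham and 1899.8 and 1656 CPM at ligation 24 h, log2 ratios of 2.08 and 1.45. Both genes were high in the 24 h ligation libraries alone, and their intervals there did not overlap those at sham. Of the cytokine and chemokine list, 11 of 17 measured genes rose in WT and 1 fell, with a median of 1.95, and 8 of 18 rose in KO and 0 fell, with a median of 0.85. The list also held Ccl2, which attracts monocytes, at 1198 and 1813 CPM at sham and 2619 and 3890.3 CPM after ligation (1.13 and 1.10). The acute-phase gene Saa3 rose by 2.18 and 1.61 and Osm (oncostatin M) by 2.26 and 1.41. The other gated macrophages moved alongside, with Cxcl3 at 216, 287, 1742, 1354, 80.3 and 84.6 CPM.

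Interleukin genes differed between the genotypes in this contrast. Il1b, which encodes interleukin-1 beta, was at 81.5, 149, 403, 116, 61.1 and 138 CPM, log2 ratios at ligation 24 h against sham of 2.31 (2.05 to 2.57) in WT and -0.36 (-0.60 to -0.12) in KO. Il6 was at 2.52 and 3.60 CPM at sham and 49.3 and 3.21 CPM at ligation 24 h. In the WT 24 h library 1 cell held 41.4% of the 58 Il6 UMIs and 28.9% of the 474 Il1b UMIs. Il1b is abundant in neutrophils, 98.3% to 99.4% of which carried a UMI. The neutrophil marker sum of members was lower in WT than in KO at ligation 24 h. That sum includes S100a8 and S100a9, which the member rule limited, and the part of neutrophil transcripts in the Il1b levels was not tested. The difference between genotypes was not tested.

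Part of the genes of the response to low oxygen rose in both genotypes. Hilpda, which restrains fat breakdown in lipid droplets and is induced by hypoxia, was at 44.3, 33.4, 281, 171, 49.1 and 67.5 CPM, log2 ratios of 2.67 (2.32 to 3.02) and 2.36 (1.98 to 2.76). Slc2a1, the glucose transporter GLUT1, was at 19.1, 22.1, 100.3, 85.5, 19.5 and 16.5 CPM (2.39 and 1.95). Bnip3, a receptor for the removal of mitochondria, was at 37.2 and 54.0 CPM at sham and 157 and 123 CPM after ligation (2.08 and 1.19), and Slc16a3, a lactate exporter, rose by 1.63 and 1.21. Of the hypoxia and glycolysis list 5 of 14 genes rose in WT and 7 of 14 in KO, none fell, and the medians were 0.95 and 1.03. The enzymes Pgk1, Aldoa and Pkm sat near the 2-fold line in both genotypes, at 0.95 and 0.97, 0.98 and 0.99, and 0.87 and 0.99. Fam162a, a mitochondrial protein responsive to hypoxia, rose by 1.22 and 1.22.

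The naming rule also gave Plaur, F10, Srgn and Ppbp. Plaur, the urokinase receptor, was at 48.8, 39.1, 304, 143, 38.4 and 25.5 CPM (2.64 in WT and 1.88 in KO). F10, coagulation factor X, was at 42.3 and 41.6 CPM at sham and 151 and 105 CPM after ligation (1.84 and 1.33). Hmox1, the heme oxygenase, was at 381, 412, 1399.7, 1755, 2743 and 1864 CPM (1.88 and 2.09), and it stayed high at 72 h. It belongs to the heme and iron list, of which 1 of 11 genes rose and 2 fell in WT (Blvrb, Hpgds), and 2 rose and 2 fell in KO. Srgn, the proteoglycan of secretory granules, was at 985, 1084, 3075, 3301, 711 and 865 CPM (1.64 and 1.61). Ppbp, the platelet basic protein gene, was at 83.0, 154, 668, 424, 81.4 and 37.5 CPM (3.01 and 1.46). Itga2b, the integrin that defines platelets, had between 0 and 7 UMIs in each library, and no 1 cell held more than 13.8% of the Ppbp UMIs in the 2 ligation libraries at 24 h.

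Identity genes lay lower. Gas6 was at 340.2, 251, 76.5, 97.2, 206 and 208 CPM, log2 ratios of -2.15 (-2.49 to -1.83) in WT and -1.37 (-1.60 to -1.14) in KO. Selenop was at 2138, 1896, 637, 668, 1291 and 1539 CPM, with ratios of -1.75 (-1.86 to -1.63) and -1.51 (-1.59 to -1.42). Both genes were lowest at ligation 24 h and higher again at 72 h. Of the resident identity list 0 of 22 genes rose and 6 fell in WT (Ccl8, Fcgrt, Fcna, Gas6, Mgl2, Selenop), with a median of -0.75, and 1 rose and 11 of 22 fell in KO, with a median of -1.03. Mrc1, at 1381, 1291, 824, 823, 492 and 694 CPM, stayed inside 2-fold at -0.74 and -0.65. Pf4, platelet factor 4, was at 5673, 6148, 6982, 10171, 6201 and 4719 CPM and did not fall. The list was chosen with earlier results of these data known and is no independent evidence of a direction.

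The naming rule, which ranks genes at least 2-fold the same way in both genotypes, also gave genes outside the identity list that fell. Hpgd, which inactivates prostaglandins, was at 245, 225, 91.8, 54.6, 17.7 and 40.5 CPM (-1.42 and -2.04). Abca9, a lipid transporter, was at 154, 179.9, 45.9, 38.6, 18.9 and 40.5 CPM (-1.74 and -2.22). Lifr, the receptor of leukemia inhibitory factor, was at 177, 133, 68.9, 51.8, 17.0 and 33.0 CPM (-1.36 and -1.36). These 3 genes were highest at sham and did not return at 72 h. Tmem176a, a membrane protein of antigen-presenting cells, had log2 ratios of -1.81 and -1.93, and Stard8, Wwp1 and Pld4 had ratios of -1.47 and -1.83, -1.39 and -1.32, and -1.40 and -1.34. Fcrls, an Fc receptor-like gene, was at 335, 259, 74.0, 103, 607 and 508 CPM (-2.18 and -1.33), low at ligation 24 h alone.

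MHC class II genes fell in part in WT. H2-Ab1 was at 867, 497, 298, 436, 152 and 534 CPM, with ratios of -1.54 (-1.71 to -1.37) in WT and -0.19 (-0.32 to -0.06) in KO. In WT 4 of 7 measured class II genes fell (median -1.18) and in KO 0 of 8 did (median -0.43). H2-Ab1 was higher in WT than in KO at sham and lower in WT than in KO after ligation, and the difference between the 2 ratios was not tested. The B cell marker Ighm was lower at ligation 24 h in both genotypes (-2.82 and -2.82). The part of B cell transcripts in the class II levels was not tested. Genes of monocyte-derived macrophages rose in 7 of 14 cases in WT and 7 of 15 in KO (medians 1.0 and 0.88), among them Chil3, at 383, 322, 1112, 858, 173 and 207 CPM (1.54 and 1.42). Ccr2 was not among them, at 348, 306, 398, 355, 258 and 369 CPM (0.19 and 0.21). Interferon-induced genes had medians of 0.11 and -0.00, with 0 of 12 and 1 of 12 rising.

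Other lists moved less evenly. Of the lipid-handling list 5 of 16 rose and 1 fell in WT, and 3 rose and 1 of 16 fell in KO. Arg1, the arginase of wound macrophages, was at 1147, 1789.9, 3594, 3843, 727 and 1119 CPM (1.65 and 1.10), and Apoe, apolipoprotein E, was at 12839.9, 11841, 4969.7, 6271, 16938 and 15489 CPM (-1.37 and -0.92). Of the NF-kB list 4 of 14 rose in WT and 1 of 15 in KO, and of the efferocytosis list 2 of 16 and 1 of 18 rose while 2 and 3 fell. Mertk, the receptor that Gas6 serves, was at 46.3, 55.0, 40.0, 37.8, 42.1 and 66.0 CPM and passed 2-fold in neither pair. Immediate early and heat shock genes, which respond to tissue dissociation, rose in 5 of 18 cases in WT and 1 of 18 in KO, with list medians of 0.57 and 0.34. Their part in the other changes was not tested.

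**Figure D3:**
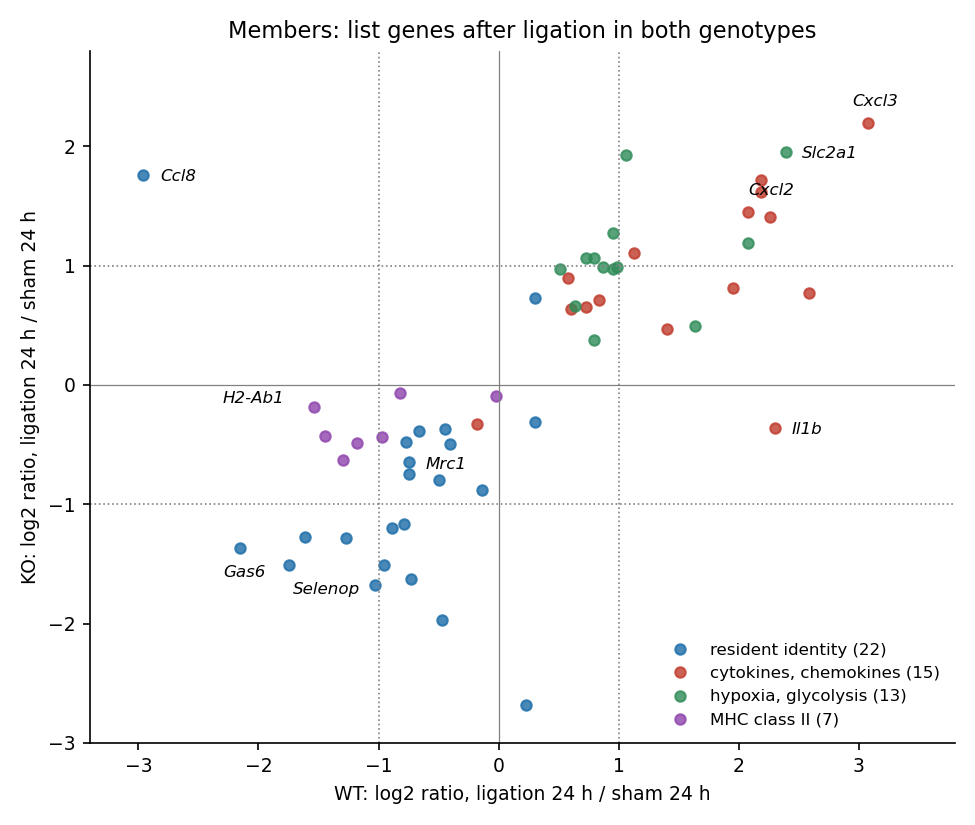
Log2 ratio of ligation 24 h to sham in WT (x axis) and KO (y axis) for genes of 4 lists measured in both pairs, 1 point per gene, with dotted lines at 2-fold. Cxcl3 sits at 3.08 and 2.20, Gas6 at -2.15 and -1.37, and Il1b (2.31 and -0.36) and Ccl8 (-2.96 and 1.76) lie off the diagonal.

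The 24 h changes were also measured in the members with a Lyve1 or Timd4 UMI, since the mix of receptors shifted between sham and ligation. In these cells 10.8% of genes passed 2-fold in WT and 5.68% in KO. The cytokine list had medians of 2.17 in WT, with 12 of 16 rising, and 0.84 in KO, with 7 of 16 rising. The hypoxia list had medians of 1.46 and 1.24, with 10 of 11 and 9 of 12 rising, and the identity list had medians of -0.75 and -0.90. In these cells Cxcl3 was at 41.4, 188, 1053 and 949 CPM in the sham and 24 h libraries, Hmox1 at 299, 368, 1777 and 1824 CPM, and Gas6 at 499, 324, 123 and 162 CPM. The chemokine, hypoxia and identity differences were thus present among the cells with the 2 more restricted receptors, which are a part of all members. The summed monocyte-derived genes moved in these cells too, from 3009 CPM (WT sham) to 8300 CPM (WT ligation 24 h). The KO sums were 4467 and 6024 CPM. Among the remaining members they were 8716 and 10355 CPM (WT) and 9686 and 10421 CPM (KO). The restriction therefore did not hold the cell mix constant, and the part of that mix in the 24 h differences was not tested.

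**Figure D4:**
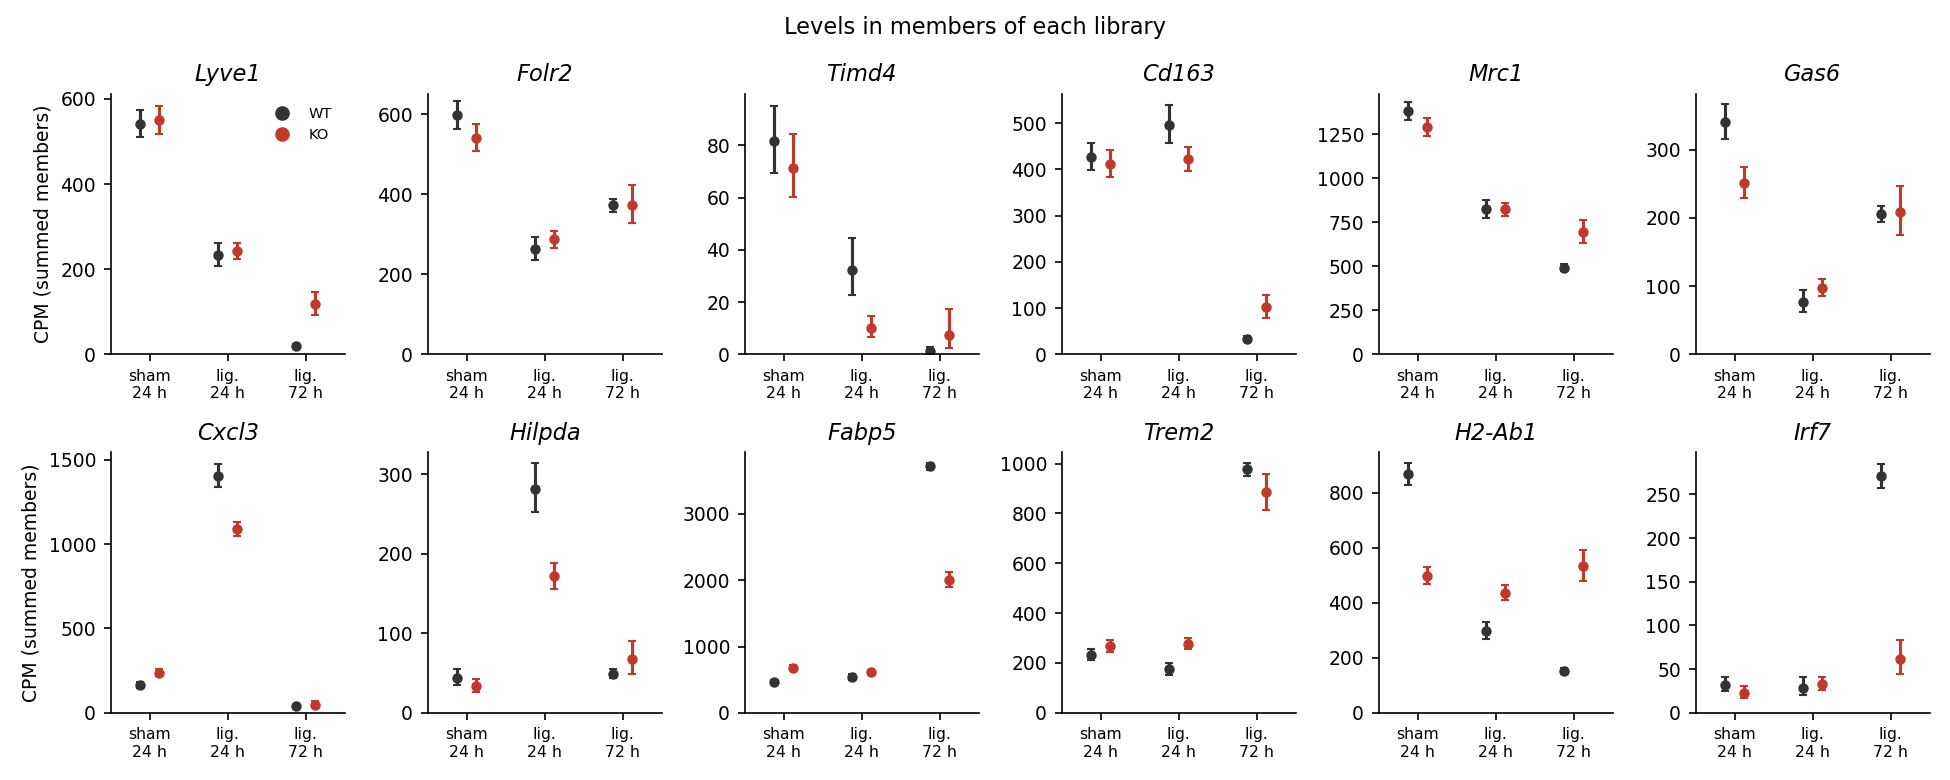
Levels of 12 genes in members (y axes, CPM from 0, different scale in each panel) at sham 24 h, ligation 24 h and ligation 72 h (x axes), WT in black and KO in red, with exact 95% Poisson intervals of counting error. Cxcl3 and Hilpda peak at ligation 24 h, Fabp5 and Trem2 at 72 h, and Irf7 is high in the WT 72 h library alone (271 CPM).

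The second comparison, ligation 72 h against ligation 24 h, uses the same 24 h libraries as the first, so ratios of the 2 comparisons are not independent of each other. It also compares members of unlike receptor makeup, since Folr2 was the only receptor in 77.4% and 49.1% of them at 72 h. In WT 7932 genes could be compared, of which 659 rose (8.31%) and 903 fell (11.4%), 19.7% in all. In KO 5937 could be compared, of which 185 rose (3.12%) and 393 fell (6.62%), 9.74% in all. Of 5909 genes measured in both pairs 98 rose in both, 32.0% of the WT and 54.7% of the KO genes, and 201 fell in both, 29.2% and 53.5%. The median gene moved by -0.15 in WT and -0.09 in KO, and with ratios centred on it 850 genes rose and 645 fell in WT.

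Lipid-handling genes rose together in part. Fabp5 was at 459, 676, 537, 620.1, 3717 and 2008 CPM, log2 ratios of 72 h to 24 h of 2.79 (2.68 to 2.91) in WT and 1.70 (1.59 to 1.80) in KO. Trem2 was at 232, 267, 176, 277, 978 and 885 CPM, with ratios of 2.47 (2.27 to 2.68) and 1.67 (1.51 to 1.84). Gpnmb, a glycoprotein of lipid-laden macrophages, was at 7.05, 10.3, 0.850, 2.81, 203 and 166 CPM. All 3 genes were low at sham and at 24 h in both genotypes and high in both 72 h libraries. Of the lipid list 10 of 17 genes rose and 3 fell in WT (median 1.39), and 8 of 17 rose and 2 fell in KO (median 0.97). The lysosomal proteases Ctsb and Ctsd rose by 1.60 and 2.32 in WT, with 0.97 and 1.27 in KO.

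Further genes that rose in both genotypes were Ms4a7, a macrophage membrane protein, at 380.0, 427, 174, 279, 1199.6 and 937 CPM (2.78 and 1.75), and Ckb, the brain-type creatine kinase, at 218, 116, 79.9, 89.6, 502 and 346 CPM (2.65 and 1.95). Itga6, an integrin that binds laminin, was at 36.7, 37.5, 17.9, 16.9, 158 and 115 CPM, and Clec12a, an inhibitory lectin receptor, at 71.0, 46.8, 52.7, 29.3, 215 and 165 CPM. Syngr1, a synaptogyrin, had 0 UMIs in the WT 24 h library and 1203 at 72 h, at least 84.2-fold higher when the 0 is set to 3 UMIs of that library, and it was at 9.24 and 123 CPM in KO. H2afv, a histone variant, and Selenoh, a selenoprotein, had ratios of 2.37 and 2.0, and 2.22 and 1.59.

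The chemokines of the 24 h cells fell. Cxcl3 had ratios of -5.12 (-5.33 to -4.92) in WT and -4.51 (-5.06 to -4.01) in KO. Ccl24, an eosinophil attractant, was at 712, 689.7, 1275, 1127, 40.0 and 117 CPM (-4.99 and -3.27), and Ccl6 at 3405, 5250.1, 9006, 7247, 1141 and 1600.0 CPM (-2.98 and -2.18). Of the cytokine list 14 of 18 genes fell and 2 rose in WT (median -1.97), and 13 of 17 fell and 2 rose in KO (median -1.96). The genes that rose in both were Ccl8 and Cxcl16. Vcan, the matrix proteoglycan versican, was at 118, 273, 451, 291, 12.9 and 33.0 CPM, Mmp19, a metalloproteinase, at 42.3, 78.6, 108, 131, 18.7 and 28.5 CPM, and F10, Plaur, Ppbp, Saa3 and Srgn had log2 ratios of -2.87, -2.99, -3.04, -2.03 and -2.11 in WT and -2.32, -2.49, -3.50, -2.15 and -1.93 in KO. The levels of Cxcl3 and Ccl24 at 72 h were below those at sham, whereas Saa3, Srgn and Ppbp lay within 2-fold of sham in WT.

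Interferon-induced genes rose in the WT pair. Irf7, the transcription factor that amplifies the interferon response, was at 31.7, 22.6, 28.9, 32.9, 271 and 61.5 CPM, ratios of 3.23 (2.74 to 3.76) in WT and 0.90 (0.32 to 1.46) in KO. Isg15, a ubiquitin-like modifier, was at 38.8, 26.7, 38.3, 68.3, 288 and 91.5 CPM, and Ifit3 at 8.05, 6.17, 0.850, 12.5, 102 and 12.0 CPM. Of the list 15 of 19 measured genes rose in WT (median 1.98) and 1 of 11 in KO (median 0.41). Ccl8, a chemokine for monocytes, was at 86.1, 33.9, 11.1, 115, 1243 and 301 CPM. Irf7 and Isg15 were high in the WT 72 h library alone, and in it Irf7 lay at 284 CPM in the remaining members and 36.7 CPM in those with a Lyve1 or Timd4 UMI. The feature names do not hold Mx1, a gene of the list.

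Proliferation genes rose too. Stmn1, which destabilises microtubules in dividing cells, was at 30.2, 33.9, 10.2, 12.0, 329 and 214 CPM (5.01 and 4.15), and Mki67, the marker of cycling cells, was counted 22, 21, 0, 2, 334 and 21 times. A Mki67 UMI was present in 3.61%, 3.42%, 0%, 1.39%, 17.0% and 12.7% of members, and after thinning in 0%, 0.685%, 0%, 0%, 3.89% and 1.82%. Gated neutrophils carried one in 0.474% to 0.681%. The summed proliferation list was also higher at 72 h in other gates. In members it was at 685 and 594 CPM at ligation 24 h and 2087 and 1357 CPM at 72 h. In the other gated macrophages it was at 552 and 601 CPM, then 1480 and 1165 CPM. Endothelial cells held 872 and 870 CPM, then 3001 and 2307 CPM. Fibroblasts held 688 and 787 CPM, then 2530 and 2500 CPM. In WT 15 of 18 list genes rose, with a median of 3.18 in which 6 genes at 0 UMIs in the 24 h library are set to 3 UMIs, and in KO 3 of 5 did. At 72 h Mki67 was at 113 and 52.0 CPM in members with a Lyve1 or Timd4 UMI and 56.6 and 26.3 CPM in the remaining members.

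Transcription factors of macrophages were followed as a list. Of the list 8 of 18 fell and 2 rose in WT, and 2 of 17 fell in KO. Klf4, a factor of monocytes and macrophages, was at 136, 82.7, 82.5, 80.7, 17.3 and 45.0 CPM (-2.25 and -0.84), and Id3 at 61.4, 78.1, 52.7, 37.0, 5.18 and 24.0 CPM. Cebpb, a factor of inflammatory genes, was at 469, 551, 1041, 1013, 195 and 292 CPM (-2.42 and -1.79), high at ligation 24 h in both genotypes. Spi1, which encodes PU.1, was level at 426, 396, 420.1, 481, 454 and 424 CPM. The identity list had medians of -0.69 in WT, with 4 of 22 rising and 7 falling, and 0.11 in KO, with 5 rising and 3 falling. Gas6 and Selenop rose in both, by 1.43 and 1.02 in WT and 1.10 and 1.20 in KO, and F13a1 (coagulation factor XIII) fell in both, with ratios of -1.90 and -1.20. The hypoxia list had medians of -0.67 and -0.93, and immediate early and heat shock genes fell in 11 of 18 cases in WT and 2 of 18 in KO.

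Members with a Lyve1 or Timd4 UMI gave another picture for part of these lists at 72 h. Their identity list had medians of 0.29 in WT and 0.38 in KO, with 5 and 5 of 22 genes rising. Over all genes measured in these cells 122 of 2858 rose and 245 fell in WT, and 145 of 3353 rose and 422 fell in KO. Their lipid list had medians of 0.14 and -0.26, against 1.32 and 0.77 in the remaining members. Fabp5 in them was at 289 and 429 CPM at 24 h and 527 and 371 CPM at 72 h, and Gpnmb at 26.7 and 14.9 CPM at 72 h against 213 and 205 CPM in the remaining members. The cytokine list remained lower, with medians of -1.14 and -0.97. Saa3 in these cells was at 1278 and 1261 CPM at 24 h and 4141 and 1448 CPM at 72 h, the opposite of its fall over all members. In the 2 libraries at 72 h 1 cell held 27.0% and 44.7% of the members' Saa3 UMIs. These sets had 22 and 17 cells at 72 h.

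The third comparison asks how KO differed from WT in each condition. Its libraries are those of the first 2 comparisons. At sham 6962 genes could be compared, of which 53 were at least 2-fold higher in KO (0.761%) and 19 lower (0.273%), 1.03% in all. At ligation 24 h 68 of 6466 were higher (1.05%) and 131 lower (2.03%), 3.08% in all, or 86 and 96 with ratios centred on the median gene. At ligation 72 h 159 of 7663 were higher (2.07%) and 309 lower (4.03%), 6.11% in all. No gene met the naming rule in the same direction in all 3 conditions.

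At sham members of the 2 genotypes were close. Of the 24 identity genes 1 of 22 measured was lower in KO, Ccl8, and none was higher (median 0.09). The named genes were Vcan, at 118 CPM in WT and 273 in KO (1.21, 0.98 to 1.43), Tppp3, which promotes tubulin polymerisation, at 84.6 and 173 CPM (1.03), and Slamf9, a receptor of the SLAM family, at 134 and 64.2 CPM (-1.06). Vcan was lower in KO at ligation 24 h and higher at 72 h, inside 2-fold in the first case (-0.63) and outside in the second (1.36). MHC class II genes had a median of -0.59 with none past 2-fold, H2-Ab1 lying at 867 and 497 CPM, and cytokines had a median of 0.47 with 1 of 16 lower (Ccl8). Members without a Lyve1 or Timd4 UMI were 55 of 166 in the WT and 37 of 146 in the KO sham library.

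At ligation 24 h the named genes were Serpinb6a, a serine protease inhibitor, at 93.5 CPM in WT and 193 in KO (1.04, 0.74 to 1.36), Plaur, at 304 and 143 CPM (-1.09, -1.30 to -0.87), Nktr, at 163 and 75.9 CPM (-1.10), and Gm42418, at 43548 and 15161 CPM (-1.52). Gm42418 overlaps a ribosomal RNA repeat, so its UMIs may come from ribosomal RNA and its level is uncertain. Il1b, at 403 CPM in WT and 116 in KO, was lower in KO (-1.80, -2.02 to -1.59), and with Il6 it made up the 2 of 19 cytokine genes that were. Ccl8 was higher in KO, 13 UMIs against 286, with 1 cell holding 30.4% of the latter. Vsig4, a complement receptor of resident macrophages, was lower in KO, at 130.1 and 23.3 CPM, with 1 cell holding 28.8% of the WT UMIs. The hypoxia list had a median of 0.06 and the identity list -0.22. Cardiomyocyte markers moved with this comparison, with 5 of 5 measured at least 2-fold higher in KO (median 4.09), and the neutrophil gene S100a9 was higher in KO too. Their part in the differences was not tested.

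At ligation 72 h 2 groups of genes stood on opposite sides. MHC class II genes were higher in KO in 6 of 7 cases (median 1.54), with H2-Ab1 at 152 CPM in WT and 534 in KO (1.81, 1.63 to 1.99), Cd74, the invariant chain, at 672 and 1955 CPM (1.54, 1.45 to 1.63), and H2-DMa, which loads peptide onto class II, at 70.9 and 145 CPM (1.04). Interferon-induced genes were lower in KO in 12 of 19 cases (median -1.57), with Irf7 at 271 and 61.5 CPM (-2.14, -2.63 to -1.69) and Isg15 at 288 and 91.5 CPM (-1.65). Cxcl10, a chemokine induced by interferon, had 524 UMIs in WT and 0 in KO. The KO members held 666876 UMIs in all, so a count of 0 there allows up to 4.50 CPM, and the WT UMIs came from 25 cells, 1 of which held 20.6%. The other gated macrophages carried Irf7 at 254 CPM in WT and 136 in KO at 72 h. The class II list was also higher in KO in gates of other cells. It summed to 95.3 and 1476 CPM in fibroblasts, 599 and 1406 CPM in endothelial cells and 816 and 1305 CPM in neutrophils. In members it summed to 3720 and 5860 CPM, and in the other gated macrophages to 12151 and 11804 CPM. The part of such background in the class II difference of members was not tested.

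The other genes named at 72 h fell on both sides. Ccl8 was at 1243 CPM in WT and 301 in KO (-2.04) and Ccl12, a monocyte chemokine, at 817 and 340.4 CPM (-1.26). Hist1h2ap, a replication-dependent histone, was at 504 and 136 CPM, Tubb4b, a tubulin, at 181 and 78.0 CPM and Ms4a4c at 171 and 52.5 CPM. Of the proliferation list 7 of 18 were lower in KO (median -0.90). Higher in KO were Ccl24, at 40.0 and 117 CPM (1.55), Tmem176b, at 92.3 and 195 CPM (1.08), Lars2, at 252 and 744 CPM (1.56), and Gm42418, at 11912 and 25738 CPM (1.11). Lipid-handling genes had a median of -0.44 with none past 2-fold.

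The receptor makeup differed between the 72 h libraries alongside these genes. Lyve1 was at 20.5 CPM in WT and 117 in KO, Cd163 at 33.9 and 102 CPM, and Folr2 at 372 and 373 CPM. Among the remaining members, which carry no Lyve1 or Timd4 UMI, MHC class II genes had a median of 1.55 with 4 of 7 higher in KO, and interferon-induced genes a median of -1.48 with 14 of 19 lower. Over all genes 2.07% were higher and 4.03% lower in KO among all members, and the share for the remaining members alone is not given here. Among the 22 and 17 members with a Lyve1 or Timd4 UMI 1260 genes could be compared, of which 58 passed 2-fold. Too few of the 1260 were interferon-induced for a median. There MHC class II genes had a median of 0.69 with 0 of 5 past 2-fold, and H2-Ab1 was at 470.5 and 809 CPM, Isg15 at 46.7 and 156 CPM and Irf7 at 36.7 and 22.3 CPM. The WT members were deeper (median 19916 against 12784 UMIs), and erythroid and platelet markers summed to 84.5 CPM in WT and 303 in KO. That sum mixes genes that went opposite ways. The hemoglobin genes Hba-a1 and Hbb-bs were higher in KO and Ppbp was lower, with a median log2 ratio of 6.62 over these 3 genes. The part of depth, receptor makeup and other cells in the genotype differences was not tested.

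**Figure D5:**
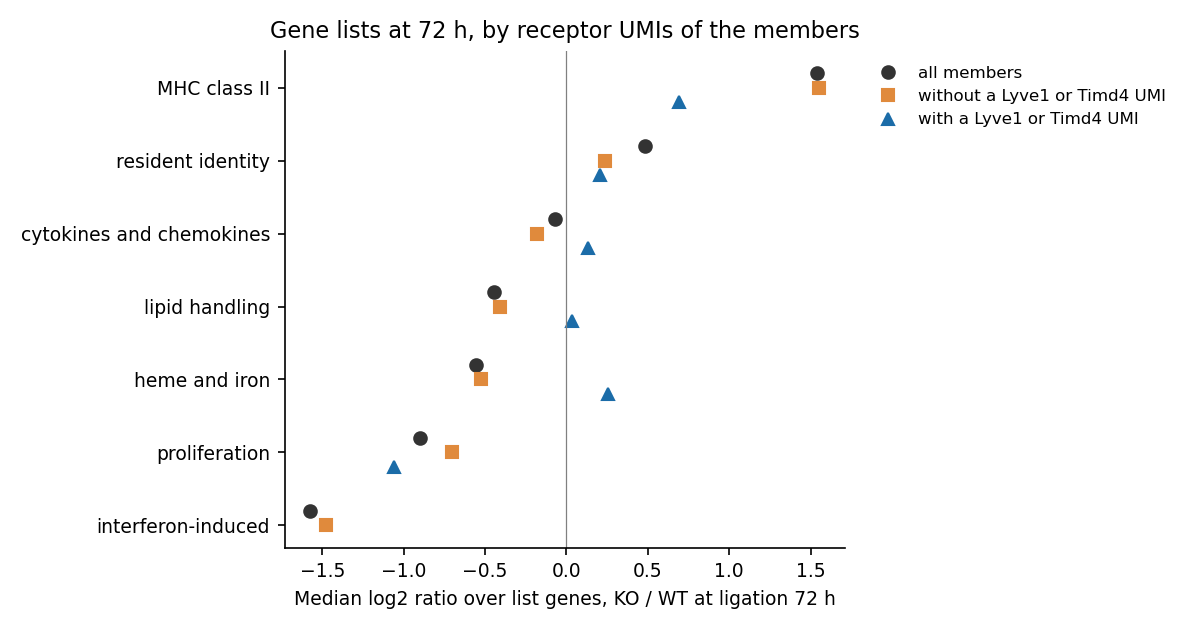
Median log2 ratio of KO to WT at ligation 72 h (x axis) over the measured genes of 7 lists (y axis), for all members, for members without a Lyve1 or Timd4 UMI and for the 22 and 17 members with one. MHC class II (1.54 over all members) and interferon-induced genes (-1.57) lie at the ends, and no interferon median was available for the last set.

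Cells with a class II UMI were counted as well. An H2-Aa UMI was present in 44.6%, 39.7%, 33.8%, 36.8%, 23.0% and 45.5% of members, and after thinning to 1000 UMIs in 24.1%, 19.2%, 12.3%, 18.1%, 9.19% and 23.6%. In gated endothelial cells the share was 3.13%, 2.48%, 3.46%, 4.18%, 5.15% and 15.2%, so the background was also the highest in the KO 72 h library. The other gated macrophages carried H2-Ab1 at 1452, 1719, 582, 901, 1478 and 1605 CPM and Cd74 at 4376, 5240.4, 2444, 3499, 4981 and 4798 CPM, with the 2 genotypes at 72 h lying closer to each other than in members.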

How the data were processed

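Single-cell RNA was measured in 6 libraries, each pooled from the hearts of 4 mice. The authors deposited raw UMI counts per gene and cell barcode, made with Cell Ranger 6.0.0 and mm10 per the submitters' processing notes; cell filters and gene annotation are not given in the sources used here. Rows of the 40 symbols that occur more than once were summed. Cells were kept and selected by the count rule given above, and the members and gene lists were chosen with earlier results of these data known. UMIs were summed per library, with exact 95% Poisson intervals for CPM, exact conditional intervals for ratios and Clopper-Pearson intervals for shares. Genes needed 50 UMIs over a pair, and 0 UMIs was set to 3. No count model was fitted. Genes named by rank were at least 2-fold in the same direction in WT and KO (10 per direction), or the 6 highest and 6 lowest ratios of KO to WT, with at least 100 CPM, at least 0.25 of the level in neutrophils, endothelial cells and fibroblasts, and at most 20% of UMIs in 1 cell. Other genes named come from the lists. Some genes that the rule or the lists would name are not reported here. Doublets were kept, and Scrublet calls were an alternative. The ratio script was checked on simulated data. Software was Python 3.11.15 with numpy 2.4.6, pandas 2.3.3, scipy 1.17.1, scanpy 1.11.5 and matplotlib 3.10.9.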

Additional observations from a re-analysis of the deposited data

Results flagged for a closer look

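Among all genes measured in both genotypes, at ligation 24 h against sham 3 rose in WT and fell in KO and 2 did the reverse, and at 72 h against 24 h the numbers were 3 and 1. Those among the named and listed genes were Ccl8, Fabp4 and Gm42418, with 1 library per group, so the difference was not tested. For Ccl8, ligation 24 h against sham gave log2 ratios of -2.96 (WT) and 1.76 (KO), on 171, 66, 13 and 286 UMIs in the sham and 24 h libraries, and 1 cell held 30.4% of the last. Fabp4, a fatty acid carrier that endothelial cells also express, had ratios of 1.14 (WT) and -3.77 (KO) for ligation 24 h against sham and of -1.39 and 2.36 at 72 h against 24 h, and 1 cell held 70.5% of its 278 UMIs in the WT 24 h library. Gm42418, whose level is uncertain, had ratios of 1.18 (WT) and -1.0 (KO) for ligation 24 h against sham.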

How the results depend on the processing

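The limits are those of 1 pooled library per group: no value here has a replicate check, and depth, receptor makeup and the mix of other cells differ between libraries. No paired analysis was possible because each group had 1 library. The restriction to members with a Lyve1 or Timd4 UMI was chosen after seeing the data. Of the gene ratios under all alternatives, 380 stayed inside their counting interval, 108 moved outside it and 3 reversed. The alternatives differed in this. Among members with a Lyve1 or Timd4 UMI 32 stayed inside, 60 moved outside and 3 reversed. With cells weighted equally 64 stayed inside and 35 moved. A minimum of 2000 UMIs left 98 inside and the removal of the highest Scrublet scores 97. Of the list medians 728 stayed inside, 82 moved outside and 12 reversed. Among members with a Lyve1 or Timd4 UMI these numbers were 67, 40 and 8.

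Shares of kept cells moved as follows. A minimum of 2000 UMIs gave 7.27% in WT and 2.02% in KO at 72 h (4.36% of the KO gate), and at most 10% mitochondrial UMIs gave 4.06% in WT and 3.56% in KO at sham. A receptor sum of at least 8 gave 2.12%, 1.84%, 1.41%, 1.46%, 2.61% and 0.243% of kept cells and 19.3%, 24.2%, 16.7%, 16.1%, 7.54% and 0.611% of the gate in the order of the libraries, and 854 genes past 2-fold between KO and WT at 72 h. Thinning to 1000 UMIs together with a looser rule (complement, myeloid and receptor sums of at least 1 each, Col1a2 and Cdh5 at most 1), which admits other cells than the members, gave 2.11% in KO at sham, 1.31% and 1.25% at ligation 24 h, and 3.56% and 3.10% at 72 h, and 27.8%, 17.4%, 14.9%, 10.7% and 6.72% of the gate. Without neutrophils in the denominator the shares were 3.07% (WT) and 4.29% (KO) at ligation 24 h and 7.51% in WT at 72 h. The shares at sham and in KO at 72 h stayed inside their intervals. In KO the share at ligation 24 h was then above that at sham. Members with a Lyve1 or Timd4 UMI were 2.08%, 1.87%, 1.12%, 1.04%, 0.499% and 0.376% of kept cells.

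Counts of genes past 2-fold depended on the UMI minimum. With at least 20 UMIs over a pair there were 952 (WT) and 891 (KO) for 24 h against sham, 1163 in KO for 72 h against 24 h, and 311, 531 and 955 for KO against WT at sham, 24 h and 72 h. With at least 200 UMIs they were 146 and 126 at 24 h against sham, 624 and 166 at 72 h against 24 h, and 10, 16 and 85 for KO against WT. Weighting cells equally gave 127 for KO against WT at sham. Among members with a Lyve1 or Timd4 UMI they were 367 in WT at 72 h against 24 h, 115 for KO against WT at sham and 58 at 72 h.

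Medians that changed sign, with causes not tested, were the 6 markers in KO at 72 h against 24 h (-0.0331 with cells weighted equally, -0.15 with 20 UMIs), the identity list for KO against WT at 24 h (0.00488 with cells weighted equally) and growth factors in WT at 72 h against 24 h (-0.55 with 20 UMIs). Among members with a Lyve1 or Timd4 UMI, at 72 h against 24 h they were growth factors (-0.40), heme and iron (-0.0188) and identity (0.29) in WT and lipid handling (-0.26) in KO, and for KO against WT at 72 h heme and iron (0.25), immediate early genes (-0.38), lipid handling (0.0354) and monocyte-derived genes (-0.11). In the same cells Fabp5 in KO had a ratio of -0.21 and Saa3 ratios of 1.70 in WT and 0.20 in KO at 72 h against 24 h.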
